A study of Homo sapiens with 4 samples.

Results

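FOS, FOSB, FOSL1, FOSL2, JUN, JUNB, JUND, EGR1 and IER2 are immediate early genes or belong to their families, and MYC is a growth-induced gene that is usually read out beside them. These 10 genes were found by their Entrez identifiers among the 16658 genes of an RNA-seq table of FPKM values, that is, fragments scaled by exon length and by the number of mapped reads. The table covers 4 libraries, 2 from WT cells and 2 from cells of the line ZCCHC4 KO1. All 4 were labelled HepG2, a line established from a human liver tumor, and all were untreated. The ZCCHC4 KO1 cells were 1 of several lines made with CRISPR/Cas9 against ZCCHC4, a nuclear methyltransferase of ribosomal RNA, and carried no other labelled change. No other ZCCHC4 line is among the 4 libraries. Loss of ZCCHC4 and other differences between this line and the WT cells therefore cannot be told apart. The labels do not say whether the libraries of a group came from separate cultures, so p-values measure the spread between these libraries, which may be technical.

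Immediate early genes are transcribed within minutes of a growth or stress signal, without new protein synthesis. Serum response factor and its ternary complex partners such as ELK1, driven by the ERK pathway, and CREB act on their promoters. The FOS and JUN proteins pair through a leucine zipper to form AP-1, which binds DNA. FOS proteins need a JUN partner, whereas JUN proteins also pair among themselves. MYC pairs with MAX and acts on genes of ribosome assembly, nucleotide synthesis and cell growth. In liver cancer cells AP-1 and MYC are studied for their parts in proliferation, invasion and stress survival.

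ZCCHC4 itself was at 7.22 and 5.44 FPKM in the WT libraries and at 1.08 and 2.29 FPKM in the ZCCHC4 KO1 libraries (log2 fold change -1.48, standard error 0.287, adjusted p = 0.0448 from limma, and 0.0514 without ZCCHC4 KO1 replicate 1). The liver identity given in the labels was not visible in the markers examined. Of 16 hepatocyte markers, 8 were in the table used here and 0 reached an FPKM of 1 in any library; AFP was at 0.05 FPKM in WT replicate 2 and at 0 in the other libraries. The summed level of 6 fibroblast markers was 20.56 to 21.83 FPKM in WT and 9.98 to 12.63 FPKM in ZCCHC4 KO1, most of it COL3A1, with COL1A2 at 0.01 FPKM or less and DCN at 0 in both ZCCHC4 KO1 libraries. LUM, of the same list, was at 1.86 and 1.39 FPKM in WT and at 1.81 and 3.79 FPKM in ZCCHC4 KO1. Endothelial markers summed to at most 0.74 FPKM in any library. Leukocyte markers summed to 15.08 to 16.97 FPKM in WT and to 12.12 to 12.29 FPKM in ZCCHC4 KO1, nearly all of it CD68, with PTPRC at 0.12 FPKM or less. The part of these differences in the results was not tested. Replicates differed along transcript GC content, with a Spearman correlation across 10559 genes between GC and the difference of replicate 2 from replicate 1 of 0.725 in WT and -0.784 in ZCCHC4 KO1. All 10 genes have a transcript GC content above the median of 48.7 percent of tested genes, from 48.8 percent for MYC to 69.9 percent for JUND, so values with the GC trend removed are given beside the genes whose interval or call they move.

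Among these genes the clearest difference lay within the FOS family. FOSL1 rose, and FOSL2 was at lower values in both ZCCHC4 KO1 libraries without passing the test. The more abundant FOS family transcript was FOSL2 in both WT libraries and FOSL1 in both ZCCHC4 KO1 libraries. The summed level of the family was between 70.38 and 73.8 FPKM in all 4 libraries. In these bulk libraries, fewer cells with a transcript and less of it per cell cannot be told apart. MYC, JUN and IER2 were at higher values in both ZCCHC4 KO1 libraries, and JUNB, JUND and FOS at lower values, and these did not pass the test either.

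Levels per length differed widely between the genes. In WT cells MYC was the most abundant, above 96.2 percent of tested genes in mean FPKM over the 4 libraries, followed by JUND, IER2, FOSL2 and JUNB, FOSL1, FOS, JUN, EGR1 and FOSB. FOSL2 and JUNB did not differ beyond their spread in WT, since the values of FOSL2 lay between those of JUNB. In ZCCHC4 KO1 cells FOSL1 stood above JUNB and FOSL2, and JUN stood above FOS. FOSB was below an FPKM of 1 in all 4 libraries and was therefore not tested. The other 9 genes passed the filter of at least 1 FPKM in at least 2 libraries, and 10726 genes were tested in all.

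**Figure D1:**
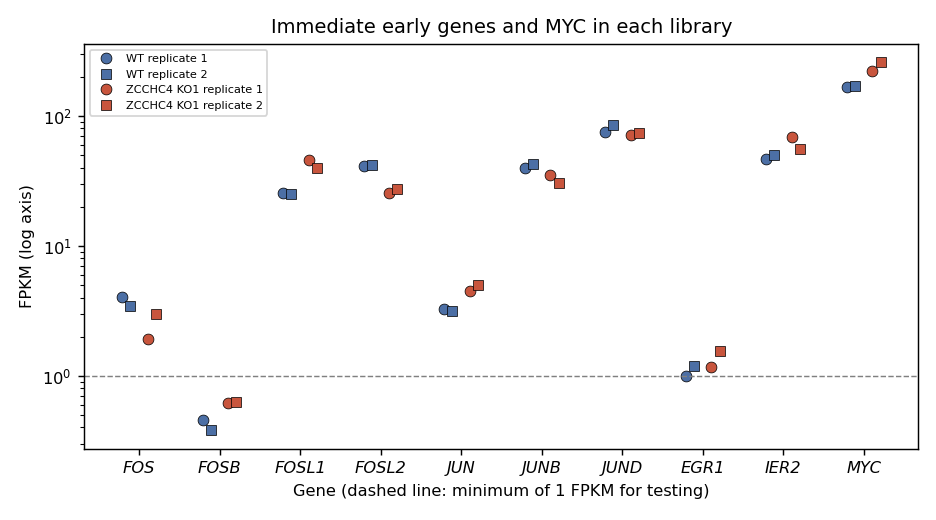
FPKM (log axis) of the 10 genes in each of the 4 libraries, WT in blue and ZCCHC4 KO1 in red, with circles for replicate 1 and squares for replicate 2. FOSL1 lies at 24.91 to 25.32 in WT and 39.87 to 45.56 in ZCCHC4 KO1, FOSL2 moves the other way, and the 2 groups of EGR1 overlap.

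FOSL1 encodes Fra-1, a FOS family protein that lacks the strong transactivation domain of c-Fos and is abundant in many invasive tumor lines. In GRCh38 it occupies bases 65892049 to 65900545 of chromosome 11, on the minus strand. FOSL1 was at 25.32 and 24.91 FPKM in WT and at 45.56 and 39.87 FPKM in ZCCHC4 KO1. Both ZCCHC4 KO1 libraries were above both WT libraries, and the ratio of the mean FPKM was 1.70. On the scale of log2(FPKM + 1), the fold change was 0.74 (SE 0.143, adjusted p = 0.0443 from limma, by Benjamini-Hochberg over all tested genes). The call lay close to the threshold and was lost without WT replicate 1 (adjusted p = 0.266 from limma), without WT replicate 2 (0.272) or without ZCCHC4 KO1 replicate 1 (0.077), with log2 fold changes from 0.646 to 0.834 over the comparisons that left out a library. For the 20 nearest tested genes the median was 0.113.

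FOSL2 encodes Fra-2, the closest relative of Fra-1 in size and structure. It occupies bases 28392858 to 28417317 of chromosome 2, on the plus strand. WT libraries held it at 41.15 and 41.66 FPKM and ZCCHC4 KO1 libraries at 25.71 and 27.42 FPKM, without overlap. The log2 fold change was -0.62 (standard error 0.134, 95 percent confidence interval from -0.953 to -0.291, adjusted p = 0.0575 from limma), just short of the threshold. It ranged from -0.667 to -0.577 over the comparisons that left out a library. The adjusted p from limma was 0.157 with median-ratio scaling, 0.319 with the replicate number as a block and 0.0363 with quantile normalization. With the GC trend removed the adjusted p of FOSL2 was 0.00758 at a log2 fold change of -0.59, and that of FOSL1 was 0.00376 at 0.71. The 20 tested genes nearest to FOSL2 had a median of -0.016 on this scale.

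The ratio of FOSL1 to FOSL2 within a library was 0.615 and 0.598 in the WT libraries but 1.77 and 1.45 in those of ZCCHC4 KO1. A scaling factor common to all genes of a library does not change this ratio. A GC trend can, since the FOSL1 transcript has 58.7 percent GC and that of FOSL2 53.3 percent. The mean ratio was 0.607 ± 0.0123 (SD, n = 2) for WT against 1.61 ± 0.225 (SD, n = 2) for ZCCHC4 KO1. An exact permutation test, 2-sided, gave p = 0.333, the smallest that 2 against 2 libraries allow. FOSL1 made up 35.39 to 35.68 percent of the FOS family FPKM in WT and 56.23 to 61.73 percent in ZCCHC4 KO1. FOSL2 made up 57.98 to 59.19 percent and 34.84 to 38.67 percent, respectively.

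FOS, which encodes the founding c-Fos protein, was at 4.04 and 3.43 FPKM in WT and at 1.91 and 2.99 FPKM in ZCCHC4 KO1 (log2 fold change -0.47, 95 percent confidence interval from -1.05 to 0.10, adjusted p = 0.302 from limma). Its groups did not overlap, but WT replicate 2 and ZCCHC4 KO1 replicate 2 lay close to each other, and the log2 fold change was -0.24 without ZCCHC4 KO1 replicate 1. FOSB was at 0.46 and 0.38 FPKM in WT and at 0.62 and 0.63 FPKM in ZCCHC4 KO1. Together FOS and FOSB made up a small part of the family in every library, with FOS at 2.59 to 5.69 percent and FOSB at 0.54 to 0.89 percent. The FPKM of the 4 FOS family genes summed to 70.97 and 70.38 in the WT libraries, against 73.8 and 70.91 in those of ZCCHC4 KO1. The groups overlapped, and the log2 ratio of the mean sums was 0.03 (exact permutation test, 2-sided, p = 0.667). With median-ratio scaling this ratio was 0.108.

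**Figure D2:**
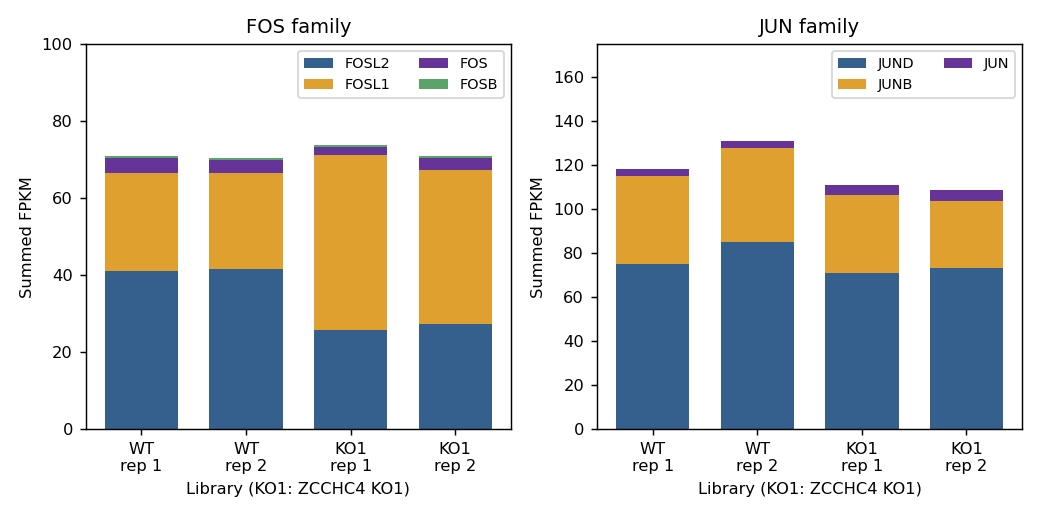
Stacked FPKM of the FOS family (left) and the JUN family (right) in each library, with 1 bar per library and 1 colour per gene, on axes that start at 0. The FOS family bars are of nearly equal height, 70.38 to 73.8, while the share of FOSL1 grows and that of FOSL2 shrinks from WT to ZCCHC4 KO1, and JUND and JUNB make up most of every JUN family bar.

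None of the JUN family genes passed the test. JUND, the family member that is steadily present in resting cells, was at 74.99 and 85.12 FPKM in WT and at 71.18 and 73.3 FPKM in ZCCHC4 KO1 (log2 fold change -0.14, 95 percent confidence interval from -0.47 to 0.18, adjusted p = 0.592 from limma), and the log2 fold change was -0.053 without WT replicate 2 and -0.23 without WT replicate 1. JUNB, which often restrains the growth-promoting action of c-Jun, was at 39.99 and 42.62 FPKM in WT and at 35.27 and 30.22 FPKM in ZCCHC4 KO1 (log2 fold change -0.33, 95 percent confidence interval from -0.69 to 0.03, adjusted p = 0.255 from limma). With the GC trend removed JUNB passed the test (log2 fold change -0.41, 95 percent confidence interval from -0.61 to -0.20, adjusted p = 0.0175 from limma). Both lay lower in each ZCCHC4 KO1 library, by a narrow margin in JUND. JUN, which encodes c-Jun, had values of 3.28 and 3.17 FPKM in WT and 4.51 and 5.03 FPKM in ZCCHC4 KO1 (log2 fold change 0.45, 95 percent confidence interval from -0.02 to 0.92, adjusted p = 0.234 from limma). With the GC trend removed its interval was 0.11 to 0.78 (adjusted p = 0.0604 from limma). JUN was thus a minor transcript beside JUND and JUNB in all 4 libraries, at 2.42 to 2.77 percent of the family in WT and 4.06 to 4.63 percent in ZCCHC4 KO1. The ratio of JUN to JUNB was 0.082 and 0.0744 in the WT libraries, against 0.128 and 0.166 for ZCCHC4 KO1 (exact permutation test, 2-sided, p = 0.333, the smallest possible). The family sum was 118.26 and 130.91 FPKM for WT, against 110.96 and 108.55 FPKM for ZCCHC4 KO1. The means thus had a log2 ratio of -0.18 (exact permutation test, 2-sided, p = 0.333), which was -0.108 without WT replicate 2.

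EGR1, a zinc finger factor induced through serum response elements, was near the lower end of the tested genes, at 1 and 1.18 FPKM in WT and at 1.16 and 1.54 FPKM in ZCCHC4 KO1. The groups overlapped (log2 fold change 0.17, 95 percent confidence interval from -0.29 to 0.62, adjusted p = 0.66 from limma), and the log2 fold change was 0.283 without ZCCHC4 KO1 replicate 1 but 0.049 without ZCCHC4 KO1 replicate 2, and 0.104 without WT replicate 1. IER2, a nuclear protein induced early after growth stimulation, was at 46.39 and 49.76 FPKM in WT and at 68.38 and 55.22 FPKM in ZCCHC4 KO1. The groups did not overlap, but the ZCCHC4 KO1 libraries differed from each other by more than WT replicate 2 differed from the nearer of them (log2 fold change 0.35, 95 percent confidence interval from -0.04 to 0.73, adjusted p = 0.256 from limma). The log2 fold change of IER2 was 0.197 without ZCCHC4 KO1 replicate 1, and with the GC trend removed its interval was 0.08 to 0.49 (adjusted p = 0.0545 from limma). EGR1 and FOSB were thus low and IER2 and JUNB high within the same libraries, although all are immediate early genes.

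The upstream sequences of these genes were searched for short motifs. The RefSeq promoter table for GRCh38.p14 held entries for 8 of the 10 genes, and not for FOSL1 and MYC. In the 250 bases before the start, TGACG, the core of the cyclic AMP response element, was found on either strand in 8 of these 8 genes and in 21.2 percent of all 35116 promoters. The letters searched were chosen with these sequences in view, so this count is not an independent finding, and a match is not a measure of binding. The windows of the 8 genes had 62.0 to 74.8 percent GC, and the share over all promoters was not matched for GC content. The full element TGACGTCA, which contains this core, was present in JUND and in 1.65 percent of all promoters, and TGACATCA, a variant known from the JUN promoter, in JUN and in 2.37 percent. Within these 250 bases, the CArG box, bound by serum response factor, was present in EGR1 alone among the 8 genes and in 1.16 percent of all promoters. EGR1 held it as CCATATTAGG and as CCATATATGG. Sequence farther upstream was not searched, so the lack of a match in the other genes covers this window alone. The AP-1 site TGACTCA was in 4.20 percent of all promoters, the E-box CACGTG in 6.34 percent and the EGR site GCGTGGGCG in 0.720 percent, and these were in 0 of the 8 genes within this window.

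Shown are the windows of FOSL2, whose level differed most among the genes with an entry, of JUN and JUND, which hold the variant and the full element, and of EGR1, which holds the CArG boxes. They lie at chr2:28392608-28392857 on the plus strand, chr1:58784048-58784297 and chr19:18281623-18281872 on the minus strand and chr5:138465229-138465478 on the plus strand, and read toward the start of the gene, with these motifs in capitals.
FOSL2: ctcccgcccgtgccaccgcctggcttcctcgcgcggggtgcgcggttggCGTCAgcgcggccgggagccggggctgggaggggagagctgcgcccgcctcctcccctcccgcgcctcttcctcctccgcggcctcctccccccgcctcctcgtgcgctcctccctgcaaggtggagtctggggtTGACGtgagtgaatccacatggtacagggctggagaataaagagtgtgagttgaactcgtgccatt
JUN: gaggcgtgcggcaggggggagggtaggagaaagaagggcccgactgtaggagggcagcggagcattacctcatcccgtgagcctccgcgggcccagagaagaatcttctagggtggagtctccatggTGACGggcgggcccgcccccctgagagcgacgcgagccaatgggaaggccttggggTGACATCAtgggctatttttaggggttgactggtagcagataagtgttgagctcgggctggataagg
JUND: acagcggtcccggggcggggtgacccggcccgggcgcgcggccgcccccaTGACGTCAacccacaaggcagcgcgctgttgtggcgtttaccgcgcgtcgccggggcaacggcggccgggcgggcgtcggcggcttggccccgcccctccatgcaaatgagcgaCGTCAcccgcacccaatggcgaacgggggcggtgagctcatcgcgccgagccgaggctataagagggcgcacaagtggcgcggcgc
EGR1: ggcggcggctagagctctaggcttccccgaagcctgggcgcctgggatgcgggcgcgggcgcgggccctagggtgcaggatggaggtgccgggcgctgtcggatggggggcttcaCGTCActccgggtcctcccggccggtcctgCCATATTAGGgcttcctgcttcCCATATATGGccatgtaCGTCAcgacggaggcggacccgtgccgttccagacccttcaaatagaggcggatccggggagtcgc

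The transcripts differed in structure as well. JUN, JUNB and JUND are each encoded by 1 exon in their GENCODE v44 transcript, as are 1.9 percent of tested genes, whereas the FOS family transcripts have 4 exons. The ATTTA pentamer, known from unstable mRNAs, occurred 9 times in the FOSL2 transcript of 6713 bases and 1 time in the FOSL1 transcript of 1702 bases. It occurred 6 times in the MYC transcript of 3721 bases, 5 times in FOS and 3 times each in FOSB and JUN. In JUNB, JUND and EGR1 it occurred 2 times each, and in IER2 0 times. A link between these counts and the changes in level was not tested. The median was 3 over tested genes, with a median length of 3246 bases.

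MYC was the most abundant of the 10 genes. Values of 167.15 and 169.81 FPKM in WT stood against 221.42 and 257.77 FPKM in ZCCHC4 KO1, and both ZCCHC4 KO1 libraries were above both WT libraries. The ratio of the mean FPKM was 1.42 and the log2 fold change 0.50 (standard error 0.138, 95 percent confidence interval from 0.162 to 0.841, adjusted p = 0.0985 from limma), so MYC did not pass the test. With the GC trend removed the log2 fold change was 0.61 and the adjusted p from limma was 0.00676. Quantile normalization also took MYC below the threshold (adjusted p = 0.0434 from limma). Median-ratio scaling did not (0.206 from limma), nor did a block for replicate number (0.474 from limma). The log2 fold change of MYC ran from 0.392 to 0.611 when a library was left out. Of the 20 tested genes nearest to MYC, 6 had a positive and 14 a negative log2 fold change, with a median of -0.157.

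By count, limma called 1 of the 9 tested genes higher in ZCCHC4 KO1 (FOSL1), beside 1.50 percent of all tested genes, and 0 lower, beside 4.48 percent. At an unadjusted p under 0.05, FOSL1 and MYC were higher, beside 8.96 percent of all tested genes, and FOSL2 was lower, beside 13.9 percent. With the GC trend removed, 2 were called higher (FOSL1 and MYC) beside 13.0 percent of all genes in that fit, and 2 lower (FOSL2 and JUNB) beside 13.9 percent. Groups that did not overlap were found for 4 tested genes with ZCCHC4 KO1 higher and 4 with ZCCHC4 KO1 lower, beside 23.1 and 28.5 percent of all tested genes. At the study's thresholds, an FDR under 0.001 with a 2-fold difference, 0 of the 9 were called in either direction, beside 0.0186 percent of all tested genes higher and 0.0559 percent lower. Over the 9 genes the median log2 fold change was 0.166, beside -0.029 over all tested genes.

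**Figure D3:**
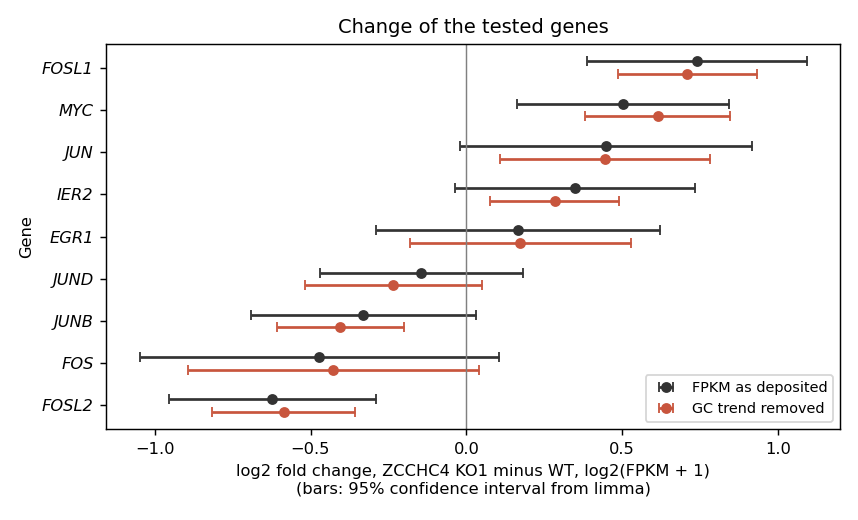
log2 fold change (ZCCHC4 KO1 minus WT, on log2(FPKM + 1)) of the 9 tested genes with 95 percent confidence intervals from limma, from FPKM as deposited (dark) and with the GC trend removed (red). The intervals of FOSL1, MYC and FOSL2 lie to 1 side of 0 in both, and those of EGR1, JUND and FOS span 0 in both.

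Of the 31 tested genes that signal to or act on immediate early genes, 1 was higher and 2 were lower, with 1 higher and 6 lower at an unadjusted p under 0.05. Over all tested genes 1.50 percent were called higher and 4.48 percent lower, and 8.96 and 13.9 percent at an unadjusted p under 0.05. ARAF, a kinase at the head of the ERK pathway, was at 87.09 and 91.95 FPKM in WT and fell to 46.4 and 41.93 FPKM (adjusted p = 0.0159 from limma), and ELK1, the partner of serum response factor, fell from 64.13 and 72.26 to 42.22 and 36.56 FPKM (adjusted p = 0.041 from limma). The ELK1 call was lost without either WT replicate 1 or WT replicate 2, with limma giving an adjusted p of up to 0.284, and with median-ratio scaling. Both lie on chromosome X. The 20 tested genes nearest to ARAF, over bases 46573765 to 48608869, all had negative log2 fold changes, with a median of -0.78. The 20 nearest to ELK1, over bases 46837043 to 48824982, likewise did, with -0.837. These spans overlap and are not separate observations. RPS6KA2, a kinase downstream of ERK, was listed at 0.01 FPKM in both WT libraries and rose to 1.22 and 1.5 FPKM (adjusted p = 0.017 from limma). It passed the filter on low values through the ZCCHC4 KO1 libraries alone, and without it 0 genes of the list were called higher. The part of the shift around ARAF and ELK1 in their values was not tested.

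Of 37 other immediate early genes, 32 were tested, of which 5 were lower and 0 higher, with 11 lower and 4 higher at an unadjusted p under 0.05. The shares over all tested genes were 4.48 percent lower and 1.50 percent higher by call, and 13.9 and 8.96 percent unadjusted. SGK1, a serum-induced kinase, fell from 81.78 and 76.25 to 14.44 and 20.34 FPKM (log2 fold change -2.14, adjusted p = 0.00693 from limma). NR4A2, an orphan nuclear receptor, was at 3.58 and 3.16 FPKM in WT and at 0.09 and 0.16 FPKM in ZCCHC4 KO1 (log2 fold change -1.96, adjusted p = 0.00693 from limma). RHOB, a small GTPase, fell from 105.98 and 114.56 to 48.08 and 42.33 FPKM (log2 fold change -1.27, adjusted p = 0.0107 from limma). NR4A3 and TNFAIP3, named after their values were seen, were the other lower genes, and their calls were lost without WT replicate 1 (limma's adjusted p up to 0.205 and 0.218) or ZCCHC4 KO1 replicate 1. NR4A2 and NR4A3 passed the filter on low values through the WT libraries alone, and without them 3 genes of the list were called lower. With no filter NR4A3 had an adjusted p of 0.0892 from limma. The list had a median log2 fold change of -0.246, beside -0.029 over all tested genes. The 20 tested genes nearest to NR4A2 had a median of -0.438, and the part of this shift in its value was not tested.

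The ERK pathway, which acts on FOS, FOSL1 and EGR1, was not measured itself, and its feedback genes were read as transcripts only. Of 15 tested, 2 were lower and 0 higher, beside 4.48 and 1.50 percent of all tested genes. At an unadjusted p under 0.05, 2 were lower and 1 higher, beside 13.9 and 8.96 percent. DUSP4, a phosphatase of nuclear MAP kinases, fell from 4.71 and 4.76 to 0.24 and 0.28 FPKM (log2 fold change -2.19, adjusted p = 0.00535 from limma), and passed the filter on low values through the WT libraries alone. DUSP1, an immediate early phosphatase of MAP kinases, fell from 78.47 and 88.72 to 37.89 and 33.83 FPKM (log2 fold change -1.20, adjusted p = 0.0129 from limma). Without DUSP4, 1 feedback gene was called lower. The genes nearest to DUSP4 had a median log2 fold change of -0.488, against -0.008 for those nearest to DUSP1. Over the tested feedback genes the median was 0.073.

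Among the leucine zipper genes that can pair with FOS or JUN proteins or with their relatives, 10 were tested. BATF3, which pairs with JUN proteins, rose from 4.16 and 3.7 to 15.97 and 11.96 FPKM (log2 fold change 1.59, adjusted p = 0.0177 from limma). It was the 1 gene called higher, beside 1.50 percent of all tested genes, and 0 were lower, beside 4.48 percent. At an unadjusted p under 0.05, 1 was higher and 2 were lower, beside 8.96 and 13.9 percent. Of the 11 tested genes known as AP-1 targets, 4 were lower and 1 was higher, beside 4.48 and 1.50 percent of all tested genes. At an unadjusted p under 0.05, 5 were lower and 3 higher, beside 13.9 and 8.96 percent. TIMP1, an inhibitor of matrix proteases, fell from 268.53 and 286.09 to 130 and 107.92 FPKM (adjusted p = 0.0135 from limma), CD44, a hyaluronan receptor, from 102.4 and 107.23 to 46.43 and 55.9 FPKM (adjusted p = 0.0196), and PLAUR, the urokinase receptor, from 40.75 and 40.25 to 22.6 and 19.03 FPKM (adjusted p = 0.028). VEGFA, named after its values were seen, was the other lower gene. The calls of PLAUR and VEGFA were lost without WT replicate 1 or WT replicate 2 (limma's adjusted p up to 0.128 and 0.333). HMOX1, the haem-degrading enzyme of stress responses, rose from 9.41 and 11.53 to 34.5 and 31.08 FPKM (log2 fold change 1.56, adjusted p = 0.0113 from limma). Over the AP-1 targets the median log2 fold change was 0.015, and the 20 genes nearest to TIMP1, on chromosome X, had a median of -0.78. These lie over bases 46599251 to 48709016, a span that overlaps those given for ARAF and ELK1. The part of this shift in the value of TIMP1 was not tested.

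The genes around MYC showed few calls. Of 21 tested partners and regulators of MYC, 1 was lower and 0 higher, beside 4.48 and 1.50 percent of all tested genes. At an unadjusted p under 0.05, 3 were lower and 2 higher, beside 13.9 and 8.96 percent. MXD3, which competes with MYC for MAX, fell from 7.75 and 7.88 to 3.53 and 2.81 FPKM (log2 fold change -1.09, adjusted p = 0.0386 from limma), a call lost without WT replicate 1 or WT replicate 2 (up to 0.209). Of 38 tested MYC targets, limma called 0 in either direction. At an unadjusted p under 0.05, 12 of them were higher and 0 lower, beside 8.96 and 13.9 percent of all tested genes. The groups did not overlap for 18 with ZCCHC4 KO1 higher and for 4 with ZCCHC4 KO1 lower, beside 23.1 and 28.5 percent. TERT, named after its values were seen, was counted among both the 12 and the 18. It was at 0.4 and 0.27 FPKM in WT and at 1.09 and 1.35 FPKM in ZCCHC4 KO1. It passed the filter on low values through the ZCCHC4 KO1 libraries alone. The median log2 fold change of the MYC targets was 0.222, with 68.4 percent above 0, beside -0.029 and 46.8 percent over all tested genes. Their calls depended on the scaling. Quantile normalization gave 9 higher and 0 lower, beside 4.34 and 6.72 percent of all genes in that fit. Median-ratio scaling gave 4 and 0, beside 3.90 and 7.00 percent, and removal of the GC trend 13 and 0, beside 13.0 and 13.9 percent.

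**Figure D4:**
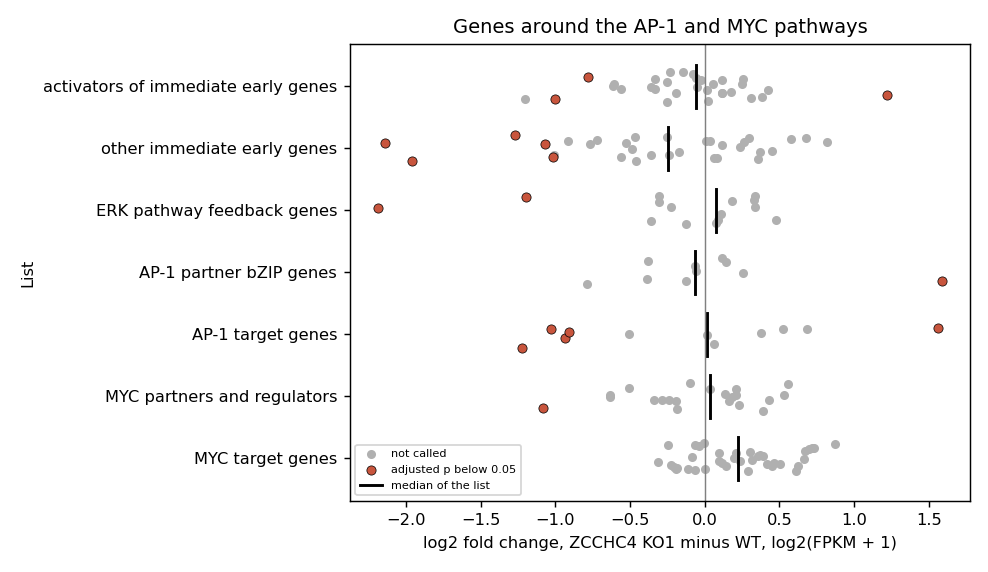
log2 fold change (ZCCHC4 KO1 minus WT, on log2(FPKM + 1)) of each tested gene of the 7 lists, with 1 row per list, red points for an adjusted p below 0.05 from limma and a black bar at the median. The MYC targets have the highest median, 0.222, and 0 red points, and the other immediate early genes the lowest, -0.246, with 5 red points, all below 0.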

How the data were processed

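Gene expression in 2 WT and 2 ZCCHC4 KO1 libraries was taken from 1 table. The authors deposited FPKM values that RSEM had computed from Bowtie2 alignments to GRCh38, and versions, annotation and read filters are not given in the sources used here. The methods name BGISEQ-500 and the labels Illumina HiSeq. FPKM was used as deposited. Low FPKM values multiplied by transcript length less 150 bases peaked between 40 and 50 in all 4 libraries, but this step shifts with the fragment length assumed, so the depth is unknown, no counting error is given, and precision rests on 2 libraries per group. All columns matched samples.

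Genes with an FPKM of at least 1 in at least 2 libraries were tested on log2(FPKM + 1), a scale that understates changes of low genes, with limma 3.58.1 in R 4.3.3 (lmFit, eBayes with a trend). Calls were made at a Benjamini-Hochberg adjusted p below 0.05 over all 10726 genes tested. The fit was also run on simulated data with independent noise per gene. Such data lack the shared GC pattern of these libraries, so that run does not bear on how well the calls hold. Symbols and positions came from RefSeq (GRCh38.p14), GC content and exons from GENCODE v44 (98.4 percent of tested genes). GC trends were removed per library by a natural spline with 4 degrees of freedom.

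The genes, lists and tests were chosen with earlier results of these data known. Besides the 10 genes and ZCCHC4, up to 3 called genes with the smallest p per list and direction are named. Nearest genes are the 10 tested on each side.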

Additional observations from a re-analysis of the deposited data

How the results depend on the processing

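Against 1 of the 9 tested genes called higher and 0 lower, there were 2 and 2 with the GC trend removed, 2 and 1 with quantile normalization, 0 and 0 with no filter on low values, with eBayes without a trend, with the replicate block and at the study's thresholds, and 0 to 1 and 0 to 1 over the fits that each left out a library, in which the lone library of a group is assumed to vary like the other group. A pseudocount of 0.1, a minimum FPKM of 5 and median-ratio scaling kept 1 and 0. The list genes, 3 higher and 14 lower of 158 tested, numbered 5 higher with a minimum FPKM of 5, 32 and 29 with the GC trend removed, 17 higher with quantile normalization, 9 higher with median-ratio scaling, 7 lower with no filter, 0 and 0 at the study's thresholds, and 3 to 17 and 8 to 25 without a library. Over all tested genes, 161 higher and 480 lower became 82 and 262 with no filter, 1371 and 1464 with the GC trend removed, 466 and 721 with quantile normalization, 417 and 749 with median-ratio scaling, 107 higher with the replicate block, 2 and 6 at the study's thresholds, and 97 to 558 and 273 to 1037 without a library. Of the fits without a library, the one without ZCCHC4 KO1 replicate 2 gave the highest counts. What caused these shifts was not tested.

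The log2 ratio of the FOS family sums, 0.034, was 0.108 with median-ratio scaling and 0.005 to 0.062 without a library, and that of the JUN family sums, -0.183, was -0.262 with the GC trend removed and -0.254 to -0.108 without a library. No log2 fold change of the 9 tested genes, ZCCHC4 or the named list genes changed sign under any alternative run. This was largely fixed in advance. Runs that changed only the filter, the eBayes trend or the block leave the log2 fold change as it is. Leaving out a library cannot reverse a gene whose groups do not overlap. Of the 17 list genes called, 6 (ELK1, MXD3, NR4A3, PLAUR, TNFAIP3 and VEGFA) lost the call without some library. The labels share only replicate numbers, and differences between replicates had a Pearson correlation of -0.787 across genes between the groups. With the replicate block FOSL1 had an adjusted p of 0.159 from limma, ELK1, MXD3, NR4A3, TNFAIP3 and VEGFA lost their calls, and with a crossed pairing, chosen after seeing the data, 4 of the 9 were called higher and 3 lower, 47 and 47 of the list genes, and 2309 and 2986 of all. The median log2 fold change of all tested genes moved from -0.029 to at most 0.048 over the scalings.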

Other observations

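Of 20 known AP-1 targets with values, 11 were tested and the rest lay below the filter. The rest are named here after their values were seen. PTGS2, which encodes the inducible cyclooxygenase, was at 1.57 and 0.85 FPKM in WT and at 0.03 and 0.07 FPKM in ZCCHC4 KO1. IL6 was at 0.33 and 0.57 FPKM in WT and at 0.09 and 0.1 FPKM in ZCCHC4 KO1. CXCL8, MMP3, MMP13 and PLAU had lower means in ZCCHC4 KO1, at 0.15 FPKM or less in every library. MMP10 was at 0 FPKM in both WT and at 0.03 FPKM in both ZCCHC4 KO1 libraries. MMP9 was at 0.04 and 0 FPKM in WT and at 0.02 and 0.09 FPKM in ZCCHC4 KO1, and SPP1 at 0 and 0.07 FPKM in each group. EGR2 and EGR3, relatives of EGR1, were at 0.04 FPKM or less in all 4 libraries, so EGR1 was the only EGR gene of the lists with an FPKM of 1 or more.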
